A study of Homo sapiens with 30 samples.

Results

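FOXA1 knockdown was compared directly with BUB3 knockdown in LNCaP, a human prostate cancer line that grows in response to androgen and carries the luminal program of prostate epithelium. The comparison used 6 of the series' 30 RNA-seq libraries: 3 from cells infected with an shRNA against FOXA1 (shFOXA1) and 3 from cells infected with an shRNA against BUB3 (shBUB3). It covered the 11823 of 26443 genes with values that reached at least 1 FPKM (fragments scaled by gene length and by library total) in at least 3 of the 6 libraries. Both groups were infected for 5 days in RPMI with serum, as were the cells of the 3 control shRNA libraries (pLKO), which serve here as the common point of reference. A second FOXA1 knockdown, made with another vector (pGIPZ) and its own 3 control libraries, provided separate libraries in which to look at the same genes. Its cells were also taken at 5 days. The labels number the shRNAs of each group #1 to #3. Whether a number marks another hairpin, a separate culture or a repeat of the same cells is not given in the sources used here. The p-values therefore measure the spread between libraries only. That spread was estimated over 12 libraries: those of shFOXA1, shBUB3 and pLKO, and 3 of cells given an shRNA against USP7 (shUSP7) for 5 days. For the second knockdown it was estimated over the 12 libraries of the pGIPZ experiment. These include 3 of knockdown cells with wild-type FOXA1 re-expressed and 3 with K295A FOXA1 re-expressed.

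FOXA1 is a pioneer transcription factor: its forkhead domain binds DNA in closed chromatin, and in luminal prostate cells it opens enhancers of the genes that define their identity. BUB3 is a WD-repeat protein of the spindle checkpoint, which carries the kinase BUB1 and the checkpoint protein BUBR1 to kinetochores and delays anaphase until chromosomes are attached. By its title the series links the 2 proteins through a complex of BUB3 with the deubiquitinase USP7 that acts on FOXA1 protein, and the libraries measure RNA only. The direct comparison asks which transcripts tell the loss of one partner from the loss of the other.

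Deposited FPKM values summed to 235344 to 244645 in the shFOXA1 libraries, 302935 to 367614 in shBUB3 and 275695 to 286460 in pLKO, and sequencing depth relative to the first pLKO library lay between 0.902 and 1.30. The shBUB3 library of replicate 3 stood apart from the other two: Pearson's r across genes was 0.9823 and 0.9813 with replicates 1 and 2, which had r = 0.9957 between them, and the shFOXA1 libraries had r between 0.9938 and 0.9948. In replicate 3 short transcripts were higher and long ones lower than in replicates 1 and 2, with a median log2 difference of 0.306 in the fifth of genes with the shortest transcripts and -0.295 in the fifth with the longest. Results are therefore also given without this library. Because the FPKM sums differ, they are also given after median-ratio scaling, in which each library is divided by its median ratio to a reference over genes. Scaling raised the median of all differences by 0.195 on the log2 scale, and the shift of a single gene depends on its level. All log2 differences below are on the log2(FPKM + 1) scale, shFOXA1 minus shBUB3, ± SE, with 3 libraries in each group and p-values from limma after Benjamini-Hochberg adjustment over all genes tested; the added 1 understates the change of low genes.

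The targeted genes matched the labels. FOXA1 was at 58.3, 60.9 and 57.7 FPKM in shFOXA1 and 139.9, 135 and 110.3 in shBUB3 against 115.8, 115.6 and 115.9 in pLKO, a direct difference of -1.10 ± 0.08 (adjusted p = 8.4e-08). The shFOXA1 libraries were all below the other 6, and shBUB3 differed from pLKO by 0.14 (adjusted p = 0.13). BUB3 was at 15.02, 16.3 and 15.4 FPKM in shFOXA1 and 3.83, 4.70 and 3.47 in shBUB3 against 36.9, 38.3 and 33.7 in pLKO, a direct difference of 1.74 ± 0.08 (adjusted p = 3.2e-09). BUB3 was thus lowest in the libraries that target it, but it was also lower than pLKO in shFOXA1, by -1.17 (adjusted p = 1.0e-07). USP7 was at 21.7, 21.8 and 22.1 FPKM in shFOXA1 and 33.4, 34.4 and 29.9 in shBUB3, a difference of -0.55 ± 0.05 (adjusted p = 1.4e-06), and EZH2, which methylates histone H3 as part of the polycomb complex, was at 5.39, 5.99 and 6.22 FPKM in shFOXA1 and 4.31, 4.75 and 4.59 in shBUB3, a difference of 0.31 ± 0.06 (adjusted p = 6.2e-04).

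The groups differed in most expressed genes. Of 11823 genes, 8927 (75.5%) were called at adjusted p under 0.05: 3353 (28.4%) were higher and 5574 (47.1%) lower in shFOXA1. In 8806 genes (74.5%) the 3 and 3 libraries did not overlap. A change of at least 2-fold was called upward in 736 genes (6.23%) and downward in 1225 (10.4%). After median-ratio scaling 8848 genes (74.8%) were called, 4603 higher (38.9%) and 4245 lower (35.9%), and the median of all genes moved from -0.16 to 0.03. Such scaling centres the differences by construction, so its near-even split does not tell what the excess of lower genes on the deposited values comes from. Without shBUB3 replicate 3, 9533 genes (80.6%) were called, 30.3% of all genes higher and 50.4% lower, and 8685 were called in the same direction as with it. The 2-fold counts were then 742 higher (6.28%) and 1179 lower (9.97%). With both changes the shares were 41.5% for calls higher in shFOXA1 and 38.7% for calls lower. With so large a share of genes called, counts within gene groups are read below against these shares and against the median of all genes.

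The largest separation was in a family of androgen-inactivating enzymes. The UGT2B genes encode UDP-glucuronosyltransferases, which conjugate steroids, including androgens, with glucuronic acid for removal. Their 5 tested members lie together on chromosome 4, in GENCODE 29 coordinates on GRCh38: UGT2B17 at chr4:68537184-68568527, UGT2B15 at chr4:68646630-68670628, UGT2B10 at chr4:68815993-68831196, UGT2B11 at chr4:69199951-69214731 and UGT2B28 at chr4:69280499-69295050. UGT2B17 was at 0.380, 0.327 and 0.464 FPKM in shFOXA1 and 131, 139.5 and 151 in shBUB3, with pLKO between them at 30.3, 28.7 and 30.3. This was the largest difference of any ranked gene, -6.67 ± 0.07 (adjusted p = 1.9e-14). UGT2B15 was at 0.614, 0.755 and 0.886 FPKM in shFOXA1 and 103, 104 and 103 in shBUB3, a difference of -5.90 ± 0.06 (adjusted p = 1.9e-14). The shBUB3 libraries were the highest and the shFOXA1 libraries the lowest, with no overlap and with pLKO (25.8, 25.1 and 26.4) between.

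The same order held for the other 3 members. UGT2B28 was at 1.63, 1.81 and 1.60 FPKM in shFOXA1 and 57.0, 54.2 and 55.8 in shBUB3, a difference of -4.40 ± 0.06 (adjusted p = 7.1e-13), UGT2B11 at 8.95, 7.91 and 9.79 FPKM in shFOXA1 and 147, 144 and 144 in shBUB3 (-3.89 ± 0.06 (adjusted p = 1.9e-12)) and UGT2B10 at 0.0503, 0.101 and 0.0861 FPKM in shFOXA1 and 12.6, 12.5 and 13.0 in shBUB3 (-3.67 ± 0.06 (adjusted p = 1.8e-12)). Against pLKO, the 5 members fell in shFOXA1 by -4.47 (UGT2B17), -3.94 (UGT2B15), -2.65 (UGT2B28), -2.82 (UGT2B11) and -1.81 (UGT2B10) on the log2 scale. In shBUB3 they rose by 2.20, 1.96, 1.75, 1.07 and 1.86 in the same order. These genes are close paralogs whose reads can be shared, so the split among members is less certain than the direction of the family. Without shBUB3 replicate 3 the UGT2B17 difference was -6.62, and with scaling -6.54.

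**Figure D1:**
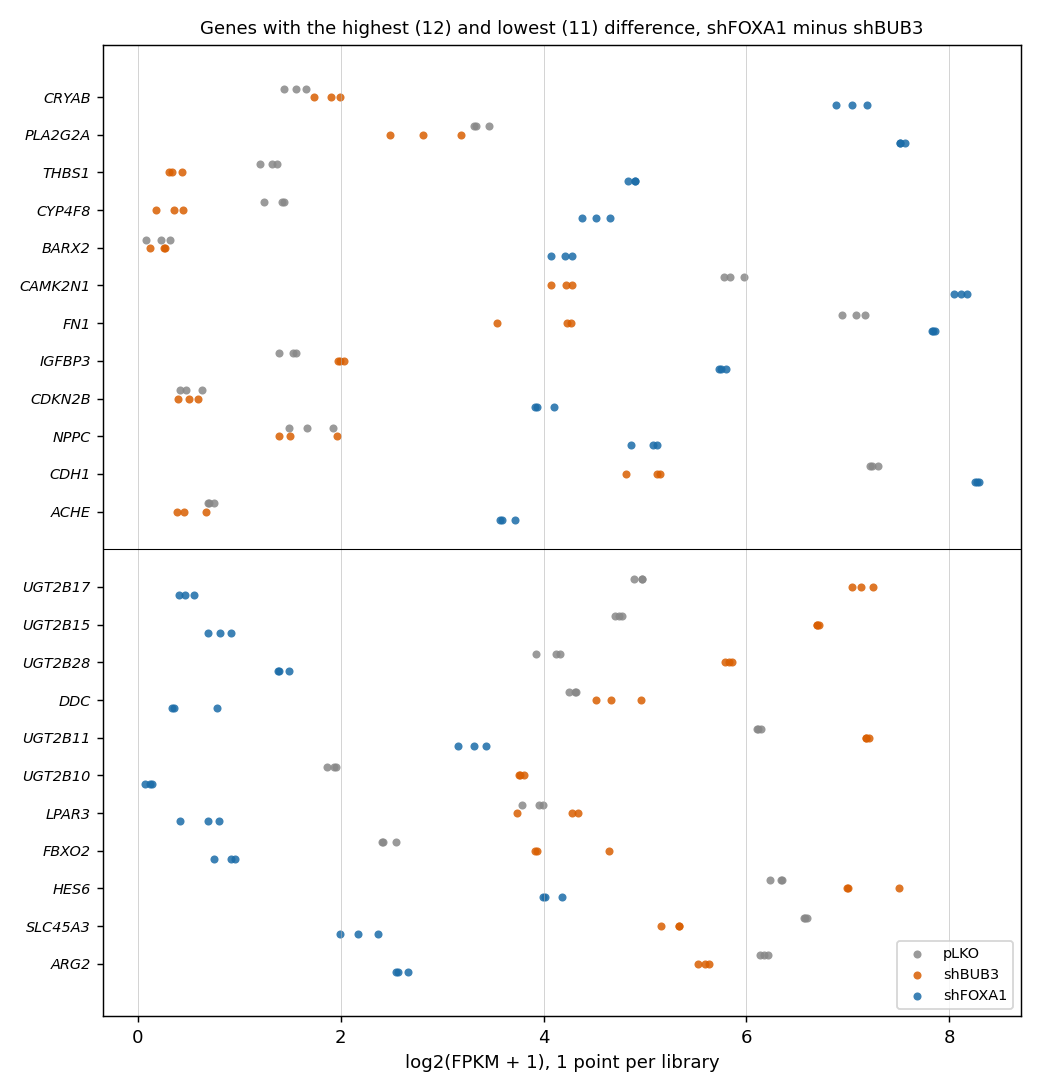
The 12 named genes with the highest and the 11 with the lowest difference between shFOXA1 and shBUB3, with 1 point per library at log2(FPKM + 1) for pLKO (grey), shBUB3 (orange) and shFOXA1 (blue). In each of the 23 genes the blue and orange points do not overlap, and for the 5 UGT2B genes the grey pLKO points lie between them.

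The other 6 of the 11 lowest genes named were DDC, LPAR3, FBXO2, HES6, SLC45A3 and ARG2. DDC, the aromatic amino acid decarboxylase, was at 0.283, 0.721 and 0.265 FPKM in shFOXA1 and 21.9, 24.3 and 30.1 in shBUB3, a difference of -4.22 ± 0.12 (adjusted p = 9.5e-11). LPAR3, a receptor for lysophosphatidic acid, was at 0.337, 0.610 and 0.736 FPKM in shFOXA1 and 19.2, 18.4 and 12.3 in shBUB3 (-3.48 ± 0.16 (adjusted p = 3.0e-09)). The DDC and LPAR3 levels in shBUB3 were close to those of pLKO, 18.1, 18.8 and 19.0 for DDC and 14.97, 12.8 and 14.5 for LPAR3, and shBUB3 minus pLKO was 0.42 (adjusted p = 0.011) and 0.20 (adjusted p = 0.28). HES6, a transcription factor of the hairy and enhancer of split family, was at 15.2, 17.1 and 14.9 FPKM in shFOXA1 and 128, 126 and 181 in shBUB3 (-3.10 ± 0.12 (adjusted p = 5.7e-10)), with the shBUB3 libraries above pLKO (74.4, 79.9 and 80.6) and the shFOXA1 libraries below it. FBXO2, a ubiquitin ligase subunit that recognises glycoproteins, showed the same order, with 0.894, 0.943 and 0.679 FPKM in shFOXA1, 14.3, 14.1 and 23.97 in shBUB3 and 4.35, 4.30 and 4.83 in pLKO (-3.29 ± 0.17 (adjusted p = 7.0e-09)).

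SLC45A3, which encodes the prostate antigen prostein, and ARG2, the mitochondrial arginase, fell in both knockdowns against pLKO and further in shFOXA1. SLC45A3 was at 2.98, 4.15 and 3.49 FPKM in shFOXA1 and 39.4, 39.4 and 34.8 in shBUB3 and 96.0, 94.1 and 94.8 in pLKO, a direct difference of -3.10 ± 0.08 (adjusted p = 4.6e-11). ARG2 was at 4.92, 5.32 and 4.83 FPKM in shFOXA1 and 44.8, 47.2 and 48.6 in shBUB3 and 73.3, 71.3 and 69.4 in pLKO (-2.99 ± 0.05 (adjusted p = 2.1e-12)). Against pLKO, all 11 of the lowest genes named were called lower in shFOXA1, while in shBUB3 8 were called higher and 2 lower. Of all genes tested, 26.5% were called higher and 44% lower than pLKO in shFOXA1, and 35.1% higher and 30.5% lower in shBUB3. These comparisons share the pLKO libraries with each other and the knockdown libraries with the direct one, so their values are given side by side only.

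At the other end, CRYAB, the small heat shock protein alpha-B crystallin, was at 117, 130.5 and 145 FPKM in shFOXA1 and 2.99, 2.33 and 2.73 in shBUB3, a difference of 5.16 ± 0.10 (adjusted p = 3.9e-12). PLA2G2A, a secreted phospholipase that releases fatty acids, was at 188, 181 and 182 FPKM in shFOXA1 and 4.61, 6.02 and 8.10 in shBUB3 (4.70 ± 0.13 (adjusted p = 5.6e-11)). THBS1, the matrix glycoprotein thrombospondin-1, was at 27.5, 28.9 and 28.9 FPKM in shFOXA1 and 0.237, 0.348 and 0.262 in shBUB3 (4.52 ± 0.07 (adjusted p = 7.6e-13)). For these 3 genes every shFOXA1 library was far above every shBUB3 and pLKO library. CYP4F8, a cytochrome P450 of fatty acid and prostanoid hydroxylation, was at 19.8, 21.8 and 24.1 FPKM in shFOXA1 and 0.360, 0.134 and 0.278 in shBUB3 (4.19 ± 0.10 (adjusted p = 1.6e-11)), and BARX2, a homeobox transcription factor, was at 17.5, 15.9 and 18.4 FPKM in shFOXA1 and 0.194, 0.0828 and 0.200 in shBUB3 (3.98 ± 0.08 (adjusted p = 7.0e-12)). BARX2 in shBUB3 was level with pLKO (0.242, 0.167 and 0.0598), and shBUB3 minus pLKO was 0.01 (adjusted p = 0.96).

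CAMK2N1, an inhibitor of CaM kinase II, FN1, which encodes fibronectin, and CDH1, which encodes E-cadherin, moved apart from pLKO in opposite directions. CAMK2N1 was at 264, 276 and 288 FPKM in shFOXA1 and 15.8, 17.6 and 18.5 in shBUB3, with 56.1, 61.7 and 53.9 in pLKO (3.92 ± 0.07 (adjusted p = 2.8e-12)). FN1 was at 229, 231 and 226 FPKM in shFOXA1 and 17.7, 18.2 and 10.6 in shBUB3, with 143, 122 and 134 in pLKO (3.83 ± 0.15 (adjusted p = 9.1e-10)). CDH1 was at 309, 312 and 305 FPKM in shFOXA1 and 33.7, 34.5 and 27.1 in shBUB3, with 157, 148 and 149.5 in pLKO (3.25 ± 0.08 (adjusted p = 2.1e-11)). The higher levels in shFOXA1 and the lower levels in shBUB3 each passed the test against pLKO in these 3 genes. In FN1 and CDH1 the fall in shBUB3, -3.05 and -2.23, was larger in size than the rise in shFOXA1, 0.78 and 1.02.

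The remaining 4 were IGFBP3, CDKN2B, NPPC and ACHE. IGFBP3, which binds insulin-like growth factors in serum and tissue, was at 52.7, 52.0 and 54.5 FPKM in shFOXA1 and 2.98, 2.92 and 3.09 in shBUB3 (3.76 ± 0.06 (adjusted p = 2.1e-12)), and CDKN2B, the CDK4 and CDK6 inhibitor p15, at 14.1, 14.3 and 16.2 FPKM in shFOXA1 and 0.418, 0.505 and 0.311 in shBUB3 (3.49 ± 0.09 (adjusted p = 2.5e-11)). NPPC, the precursor of C-type natriuretic peptide, was at 28.1, 32.8 and 33.7 FPKM in shFOXA1 and 1.82, 1.62 and 2.90 in shBUB3 (3.40 ± 0.18 (adjusted p = 8.1e-09)), and ACHE, acetylcholinesterase, at 11.1, 12.1 and 10.9 FPKM in shFOXA1 and 0.302, 0.367 and 0.587 in shBUB3 (3.13 ± 0.09 (adjusted p = 7.6e-11)). All 12 of the highest genes were called higher in shFOXA1 than in pLKO, while in shBUB3 2 were called higher and 6 lower. Each of the 23 ranked genes was called in the same direction with scaling and without shBUB3 replicate 3, which the naming rule required.

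The broadest group difference was in the translation machinery. Cytosolic ribosomal proteins are the protein subunits of the ribosome, made in large and matched amounts, and many of their mRNAs start with a pyrimidine tract (the TOP motif) through which the growth kinase mTOR controls their translation. Of 79 tested ribosomal protein genes, 77 fell and 1 rose in shFOXA1 relative to shBUB3, where 47.1% and 28.4% of all genes did, and their median difference was -1.24 against -0.16 for all genes. Their summed level was 25677, 26652 and 26553 FPKM in shFOXA1, 55922, 53715 and 81420 in shBUB3, and 49241, 50378 and 46750 in pLKO. The groups did not overlap, and shBUB3 replicate 3 was the highest library. Without that library the median was -1.04 with 77 lower and 0 higher, and with scaling it was -1.0 with 76 lower and 1 higher. With both changes it was -0.80. Against pLKO the median was -0.88 in shFOXA1 and 0.39 in shBUB3.

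The ribosomal protein genes with the lowest differences were RPL27A, RPS15A and RPL7. RPL27A was at 32.3, 32.4 and 31.4 FPKM in shFOXA1 and 144, 136 and 215 in shBUB3, a difference of -2.30 ± 0.13 (adjusted p = 1.7e-08), which was -2.09 without replicate 3. RPS15A was at 261, 279 and 251 FPKM in shFOXA1 and 911, 880.1 and 1197 in shBUB3 (-1.90 ± 0.11 (adjusted p = 1.9e-08)), and RPL7 at 249, 261 and 271 FPKM in shFOXA1 and 812, 794 and 1165 in shBUB3 (-1.80 ± 0.13 (adjusted p = 1.2e-07)). In all 3 genes every shBUB3 library was above every shFOXA1 library, and replicate 3 was the highest. Ribosomal protein genes have many processed pseudogenes that can share their reads, so single members are less certain than the group.

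The bases around the start site of 6 of these genes are shown because the TOP motif lies at the start of the mRNA. They belong to the members with a match and the lowest differences. Each run is 30 bases from RefSeq (GRCh38.p14), 5′ to 3′ in the direction of the gene, from 15 bases before the annotated start site to 15 after it, with the match in capitals. In RPL21 the match lies mostly before the annotated start site.
RPS12, chr6:132814554-132814583, plus strand: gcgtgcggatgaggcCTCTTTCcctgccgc
RPL21, chr13:27251543-27251572, plus strand: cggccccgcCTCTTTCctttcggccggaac
RPS6, chr9:19380222-19380251, minus strand: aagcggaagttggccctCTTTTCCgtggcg
RPSA, chr3:39406705-39406734, plus strand: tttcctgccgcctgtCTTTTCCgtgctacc
RPS16, chr19:39435935-39435964, minus strand: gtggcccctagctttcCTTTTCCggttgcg
RPS23, chr5:82278340-82278369, minus strand: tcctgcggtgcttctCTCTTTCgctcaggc
The direct differences of these genes were -1.79 (RPS12), -1.70 (RPL21), -1.51 (RPS6), -1.41 (RPSA), -1.36 (RPS16) and -1.35 (RPS23), and each passed the test. A match was CTCTTTC or CTTTTCC on the sense strand, within 20 bases of the start site; the letters can overlap in 1 tract. Promoter sequence was matched by symbol for 9372 of the 11823 genes tested. The match was present in 21 of the 64 ribosomal protein genes with a sequence (32.8%), in 7 of 38 translation factors (18.4%) and in 124 of all 9372 (1.32%). The 21 ribosomal protein genes with a match had a median difference of -1.24 and the 43 without had -1.22. The 103 other genes with a match had a median of -0.20, next to -0.19 for the 9205 others without one. Members with and without these letters thus had similar medians, and another start site or a variant tract would be missed.

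Other genes of protein synthesis lay below the median of all genes too. Of 46 translation initiation and elongation factors, which bring mRNA and tRNA to the ribosome, 37 fell and 3 rose, with a median of -0.73 (-0.49 with scaling, -0.61 without replicate 3). With both changes the median was -0.38, with 33 lower and 8 higher. EIF4B, which stimulates the helicase that unwinds mRNA, was at 54.1, 54.9 and 60.6 FPKM in shFOXA1 and 199.5, 195 and 202 in shBUB3 (-1.80 ± 0.06 (adjusted p = 2.8e-10)), with the shBUB3 libraries above pLKO (136, 133 and 127) and the shFOXA1 libraries below. EEF1B2, an exchange factor of elongation, was at 56.4, 58.1 and 61.5 FPKM in shFOXA1 and 152, 152 and 219.7 in shBUB3 (-1.54 ± 0.12 (adjusted p = 1.7e-07)). Among those that rose, EEF2K, the kinase that restrains elongation, was at 19.0, 17.6 and 18.3 FPKM in shFOXA1 and 8.59, 8.51 and 6.69 in shBUB3 (1.12 ± 0.08 (adjusted p = 1.1e-07)) and EIF4G2, a scaffold of cap-independent initiation, at 222, 228 and 233 FPKM in shFOXA1 and 129, 132 and 102 in shBUB3 (0.92 ± 0.08 (adjusted p = 9.7e-07)). Of 53 genes of ribosome biogenesis and RNA polymerase I, 48 fell and 2 rose, with a median of -0.73 (-0.53 with scaling, -0.67 without replicate 3, -0.47 with both). IMP4, a processing factor of the small subunit, was at 27.2, 29.3 and 30.8 FPKM in shFOXA1 and 77.5, 78.9 and 107 in shBUB3 (-1.54 ± 0.10 (adjusted p = 6.6e-08)).

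Small nucleolar RNA host transcripts, which carry guide RNAs of ribosomal RNA modification in their introns, were less uniform. Of 19, 11 fell and 3 rose, with a median of -0.41 (-0.18 with scaling, -0.25 without replicate 3). The direction of the list was not kept: 7 fell and 6 rose with scaling, and 5 fell and 7 rose with both changes, with a median of -0.02. GAS5 was at 117, 114 and 116.4 FPKM in shFOXA1 and 188, 187 and 263 in shBUB3 (-0.86 ± 0.11 (adjusted p = 1.9e-05)) and SNHG6 at 21.9, 21.0 and 17.9 FPKM in shFOXA1 and 41.7, 40.7 and 61.9 in shBUB3 (-1.19 ± 0.13 (adjusted p = 6.1e-06)). MYC, the transcription factor that drives ribosome synthesis, was at 36.1, 37.9 and 37.7 FPKM in shFOXA1 and 74.3, 72.4 and 74.1 in shBUB3 against 104, 102 and 100.2 in pLKO, a direct difference of -0.97 ± 0.04 (adjusted p = 3.1e-09). Its level was lower than pLKO in both knockdowns and lowest in shFOXA1. Among the 11 tested genes of the MYC and MAX network 4 fell and 3 rose, with a median of -0.10, which was 0.13 with scaling.

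Mitochondrial and proteasome genes followed the ribosomal protein genes in direction at smaller size. Of 77 nuclear genes for subunits of the respiratory chain, 69 fell and 0 rose, and the other 8 were not called, with a median of -0.73. The median was -0.52 both with scaling and without replicate 3, and -0.28 with both, where 49 fell and 8 rose. Their summed level was 6511, 6708 and 6981 FPKM in shFOXA1, 9935, 9708 and 14792 in shBUB3, and 8457, 8485 and 7913 in pLKO. The 3 groups did not overlap, with shBUB3 the highest. NDUFV2, a complex I subunit, was at 100.1, 100.2 and 108 FPKM in shFOXA1 and 236, 228 and 319.6 in shBUB3 (-1.32 ± 0.11 (adjusted p = 4.0e-07)). NDUFS3 and NDUFA10, also of complex I, were at 41.9 ± 2.98 (SD) against 106 ± 28.3 and at 10.9 ± 0.354 against 27.6 ± 4.15 FPKM, and here the rise of shBUB3 over pLKO, 1.08 and 1.01, was larger in size than the difference of shFOXA1 from pLKO, -0.21 and -0.25.

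Of 76 mitochondrial ribosomal proteins 64 fell and 2 rose, with a median of -0.67 (-0.44 with scaling, -0.54 without replicate 3). With both changes it was -0.31, with 50 lower and 13 higher. MRPL37 was at 45.4, 50.6 and 46.3 FPKM in shFOXA1 and 127, 129 and 169.7 in shBUB3 (-1.55 ± 0.10 (adjusted p = 3.2e-08)). The largest exception was MRPL24, at 63.5, 63.0 and 64.0 FPKM in shFOXA1 and 14.1, 16.2 and 22.03 in shBUB3 with 107, 104 and 95.4 in pLKO (1.83 ± 0.12 (adjusted p = 5.3e-08)), where shBUB3 was low. Of 39 proteasome subunits 29 fell and 4 rose, with a median of -0.60 (-0.37 with scaling, -0.41 without replicate 3). With both changes it was -0.18, with 24 lower and 10 higher. PSMD2, a base subunit of the regulatory particle, was at 47.3, 49.1 and 47.0 FPKM in shFOXA1 and 129.5, 129.6 and 142 in shBUB3 (-1.46 ± 0.05 (adjusted p = 6.3e-10)). PSMB6, a catalytic subunit of the core, went the other way, at 39.2, 42.2 and 36.2 FPKM in shFOXA1 and 12.3, 12.4 and 16.6 in shBUB3 with 76.1, 69.8 and 64.9 in pLKO (1.45 ± 0.10 (adjusted p = 1.0e-07)). MRPL24 and PSMB6 thus stood apart from the rest of their complexes through low values in shBUB3, where they differed from pLKO by -2.50 and -2.28.

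The members of several of these groups have short transcripts, and shBUB3 replicate 3 was high for short transcripts. Median transcript length was 1857 bases for the ribosomal protein list, 1439 for the respiratory chain, 1732 for mitochondrial ribosomal proteins and 2754 for the proteasome, against 3488 for all genes. It was 2980 for ribosome biogenesis and 3352 for translation factors, near that of all genes, and both of these lists had a median difference of -0.73. In the fifth of genes with the shortest transcripts the median direct difference was -0.215, and -0.135 without replicate 3. In the fifth with the longest it was -0.166, and -0.259 without it. The group medians without replicate 3 stand above; the part of transcript length in the remaining difference was not tested.

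**Figure D2:**
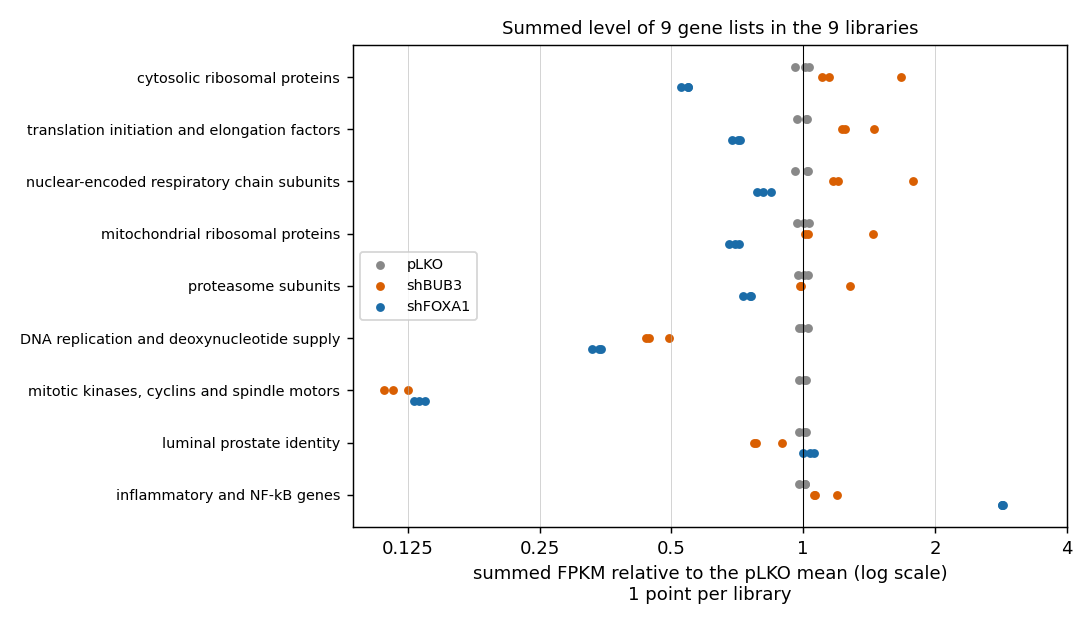
Summed FPKM of 9 gene lists in each library, relative to the mean of the pLKO libraries (log scale), for pLKO (grey), shBUB3 (orange) and shFOXA1 (blue). The 5 upper lists are below pLKO in shFOXA1 and at or above it in shBUB3, with replicate 3 the rightmost orange point. Replication and mitotic genes are low in both knockdowns. The sum of inflammatory genes is high in shFOXA1, where PLA2G2A is a large part of it.

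**Figure D3:**
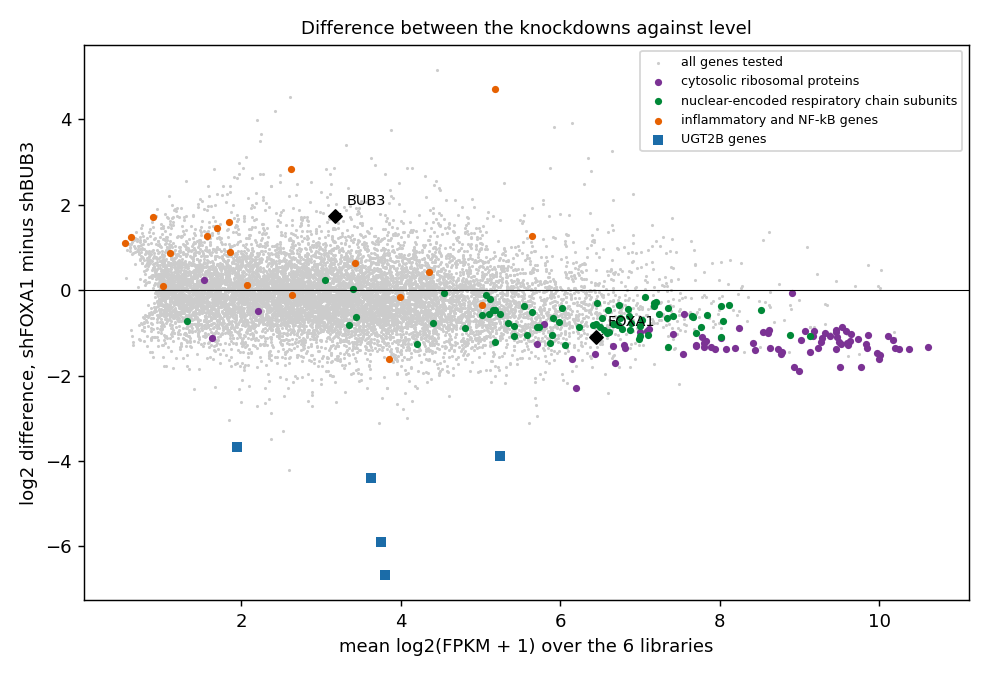
Log2 difference between shFOXA1 and shBUB3 against the mean log2(FPKM + 1) of the 6 libraries for all 11823 genes tested (grey), with 4 gene groups coloured and FOXA1 and BUB3 marked. The 5 UGT2B genes lie among the lowest, from -3.67 for UGT2B10 to -6.67 for UGT2B17, and ribosomal protein genes lie mostly near their median of -1.24 at the right of the level axis.

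Androgen-induced genes differed in both directions. KLK3, which encodes prostate-specific antigen, was at 752, 783 and 747 FPKM in shFOXA1 and 617, 634 and 722 in shBUB3 (0.21 ± 0.08 (adjusted p = 0.03)), a call lost in several of the alternatives tried, with differences from 0.17 (without shBUB3 replicate 1) to 0.52 (with scaling and without shBUB3 replicate 3). Of 47 androgen-induced genes 22 rose and 16 fell, with a median of 0.04 against -0.16 for all genes (0.26 against 0.03 with scaling, with 26 higher and 14 lower, and 0.02 against -0.17 without replicate 3). In the direct comparison 28.4% of all genes rose and 47.1% fell, and 38.9% and 35.9% did with scaling. Against pLKO 30 of the 47 were called lower in shFOXA1 and 35 in shBUB3, where 44% and 30.5% of all genes were.

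Single androgen-induced genes differed strongly in both directions. SORD, sorbitol dehydrogenase, was at 17.0, 19.1 and 17.6 FPKM in shFOXA1 and 147, 146 and 140.4 in shBUB3 with 178, 175 and 168 in pLKO (-2.95 ± 0.06 (adjusted p = 3.9e-12)). SMS, spermine synthase, was at 26.4, 27.9 and 29.2 FPKM in shFOXA1 and 102, 103 and 119.7 in shBUB3 with 71.0, 68.0 and 64.2 in pLKO (-1.92 ± 0.07 (adjusted p = 5.8e-10)), where shBUB3 was above pLKO and shFOXA1 below. MAF, a basic leucine zipper transcription factor, was at 20.8, 22.1 and 21.5 FPKM in shFOXA1 and 2.17, 2.38 and 1.83 in shBUB3 (2.85 ± 0.07 (adjusted p = 1.7e-11)). SGK1, a kinase induced by steroids, was at 8.99, 8.31 and 8.43 FPKM in shFOXA1 and 0.519, 0.562 and 0.580 in shBUB3 (2.62 ± 0.06 (adjusted p = 1.7e-11)). PPAP2A, a lipid phosphatase now named PLPP1, was at 60.4, 59.9 and 55.9 FPKM in shFOXA1 and 15.4, 15.1 and 12.7 in shBUB3 with 88.1, 85.5 and 87.1 in pLKO (1.96 ± 0.07 (adjusted p = 3.5e-10)).

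Of 27 genes of luminal prostate identity 14 rose and 8 fell, where 28.4% and 47.1% of all genes did. Their median was 0.33 (0.50 with scaling, 0.25 without replicate 3). CDH1 led the genes that rose. CLDN3, a tight junction claudin, was at 80.4, 89.5 and 84.7 FPKM in shFOXA1 and 23.3, 20.7 and 30.5 in shBUB3 (1.75 ± 0.10 (adjusted p = 2.5e-08)) and AGR2, a disulfide isomerase of secretory cells, at 22.1, 24.5 and 24.6 FPKM in shFOXA1 and 6.78, 7.21 and 8.37 in shBUB3 (1.55 ± 0.10 (adjusted p = 5.6e-08)). EPCAM, an epithelial adhesion molecule, went the other way at 29.9, 31.1 and 34.6 FPKM in shFOXA1 and 70.8, 70.2 and 81.1 in shBUB3 (-1.19 ± 0.07 (adjusted p = 2.7e-08)), as did SPDEF, a luminal ETS factor, at 26.1, 29.1 and 23.9 FPKM in shFOXA1 and 51.2, 51.8 and 61.7 in shBUB3 (-1.03 ± 0.08 (adjusted p = 3.7e-07)). The adhesion genes of the list thus did not move together: CDH1 and CLDN3 were higher and EPCAM lower in shFOXA1.

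Steroid-converting enzymes other than the UGT2B family were mixed. Of 19 tested members of the list, UGT2B genes included, 10 fell and 6 rose, where 47.1% and 28.4% of all genes did. Their median was -0.44 (-0.26 with scaling, with 9 lower and 8 higher, and -0.29 without replicate 3). Every tested UGT2B gene was among the 10 that fell, and the 6 that rose were all other enzymes. HSD11B2, which inactivates cortisol, was at 52.4, 52.2 and 50.2 FPKM in shFOXA1 and 7.27, 7.48 and 9.23 in shBUB3 (2.56 ± 0.07 (adjusted p = 5.6e-11)), with shFOXA1 above pLKO (20.8, 20.5 and 20.7) and shBUB3 below. HSD3B1, which makes androgen precursors, was at 2.05, 2.50 and 2.92 FPKM in shFOXA1 and 0.117, 0.0218 and 0 in shBUB3 (1.73 ± 0.09 (adjusted p = 6.4e-09)) and CYP3A5, a steroid hydroxylase, at 1.87, 1.71 and 1.89 FPKM in shFOXA1 and 0.269, 0.291 and 0.154 in shBUB3 (1.19 ± 0.07 (adjusted p = 1.9e-08)). HSD3B1 was near 0 in shBUB3 and in pLKO (0.0849, 0.0251 and 0.0629).

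Among forkhead factors, their cofactors and Groucho corepressors, 13 of 27 fell and 8 rose, near the 47.1% and 28.4% of all genes. The median was -0.26, against -0.16 for all genes. It was -0.07 with scaling, with 11 in each direction, and -0.16 without replicate 3. TLE1, a Groucho corepressor, was at 46.5, 48.0 and 49.9 FPKM in shFOXA1 and 10.6, 10.2 and 10.5 in shBUB3 with 7.36, 7.29 and 6.35 in pLKO (2.10 ± 0.06 (adjusted p = 5.4e-11)). FOXN3, a forkhead repressor, was at 15.8, 15.7 and 16.2 FPKM in shFOXA1 and 3.73, 3.69 and 2.52 in shBUB3 (1.98 ± 0.10 (adjusted p = 5.2e-09)), and FOXO3, a forkhead factor of starvation and stress, at 19.1, 19.1 and 18.8 FPKM in shFOXA1 and 8.10, 8.27 and 5.69 in shBUB3 (1.28 ± 0.10 (adjusted p = 2.8e-07)). FOXO4 was lower, at 1.16, 1.25 and 1.30 FPKM in shFOXA1 and 7.06, 6.34 and 5.51 in shBUB3 (-1.70 ± 0.10 (adjusted p = 1.7e-08)), as was MED1, a Mediator subunit that binds nuclear receptors, at 2.81, 2.92 and 2.70 FPKM in shFOXA1 and 10.5, 10.5 and 6.57 in shBUB3 (-1.39 ± 0.13 (adjusted p = 1.0e-06)).

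The forkhead motif was searched in promoters because FOXA1 binds it. Matches to TGTTTAC or TGTTTGC on either strand, in the 300 bases from 250 before to 50 after the start site, were present in 4.87% of all 9372 promoters, in 6.08% of the 510 of genes at least 2-fold higher and in 4.97% of the 1006 of genes at least 2-fold lower. UGT2B15 was the 1 match among 9 of the 11 lowest genes named with a promoter sequence, and there were 0 among 9 of the 12 highest. Its match is shown in 30 bases from RefSeq (GRCh38.p14), 5′ to 3′ in the direction of the gene, with the reverse complement of TGTTTAC in capitals.
UGT2B15, chr4:68670817-68670846, minus strand: ctagagtaattGTAAACAtaaaagaacacc
A match is a description of letters, and no binding was measured. FOXA1 is known to bind mostly at distant enhancers, which these windows do not cover.

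**Figure D4:**
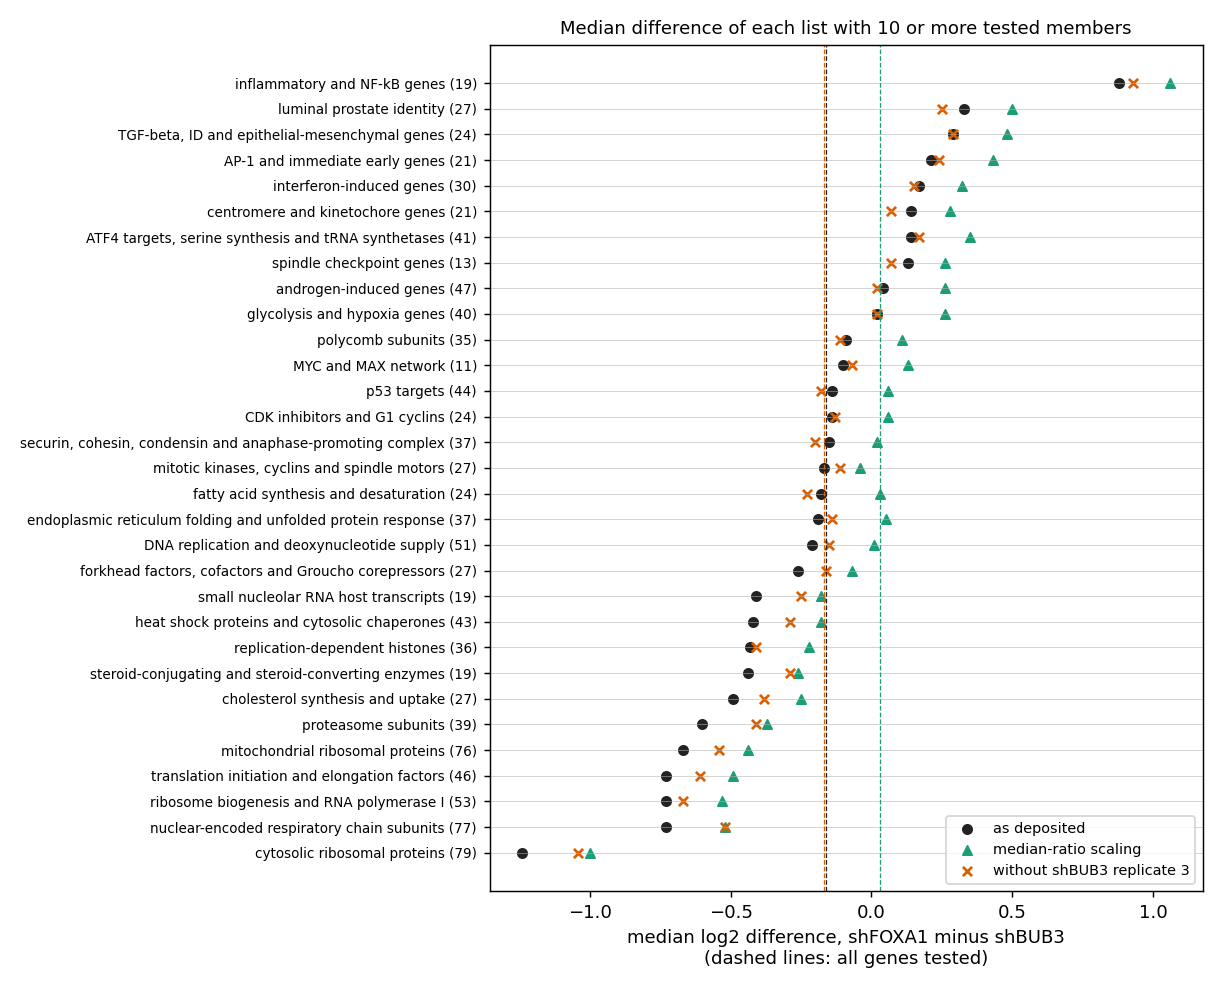
Median log2 difference, shFOXA1 minus shBUB3, of each list with 10 or more tested members (number in brackets), on the deposited values (circles), with median-ratio scaling (triangles) and without shBUB3 replicate 3 (crosses); dashed lines give the median of all genes tested under each. Ribosomal proteins lie lowest at -1.24 and inflammatory and NF-kB genes highest at 0.88, and scaling shifts the lists to the right.

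Genes of mitosis and replication were low in both knockdowns, and their direct differences lay near the median of all genes. Of 45 listed mitotic kinases, cyclins and spindle motors, 27 were tested, and the others were too low in these libraries. Of the 27 tested, 27 were lower than pLKO in shFOXA1 and 26 in shBUB3, where 44% and 30.5% of all genes were. Their medians were -2.97 and -2.73. Over all 45 listed genes the summed level was 97.1, 102.5 and 99.8 FPKM in shFOXA1 and 82.7, 93.8 and 86.8 in shBUB3. It was 755, 764 and 735 in pLKO. In the direct comparison 12 of the 27 fell and 6 rose, with a median of -0.17, next to -0.16 for all genes. With scaling 8 fell and 9 rose. STMN1, which destabilises microtubules, was at 6.06, 5.98 and 7.33 FPKM in shFOXA1 and 0.667, 0.974 and 0.970 in shBUB3 with 22.9, 24.6 and 21.8 in pLKO (2.00 ± 0.09 (adjusted p = 2.1e-09)). KIF22, a chromokinesin, was at 27.6, 30.1 and 30.3 FPKM in shFOXA1 and 8.07, 8.36 and 10.8 in shBUB3 with 38.1, 38.4 and 34.4 in pLKO (1.60 ± 0.10 (adjusted p = 3.9e-08)). WEE1, the kinase that holds CDK1 inactive, was lower at 1.79, 2.02 and 2.43 FPKM in shFOXA1 and 7.63, 8.05 and 7.57 in shBUB3 (-1.51 ± 0.07 (adjusted p = 5.0e-09)). RACGAP1 and ECT2, partners in cytokinesis, were also lower, with -0.95 (adjusted p = 7.5e-07) and -0.80 (adjusted p = 6.3e-06). In bulk RNA, fewer cells in mitosis and less RNA per cell cannot be told apart.

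Calls in genes of BUB3's own pathway depended on scaling. Of all genes 28.4% were called higher and 47.1% lower in shFOXA1, with a median of -0.16. These shares were 38.9% and 35.9% with scaling, and 41.5% and 38.7% with both changes. Of 21 listed spindle checkpoint genes with values 13 were tested, and the others were too low in these libraries. Of the 13, 5 rose, among them BUB3 as the shRNA target, and 1 fell. The median was 0.13 (0.26 with scaling, 0.07 without replicate 3). With scaling 8 rose and 0 fell, and with both changes 11 rose and 0 fell. ZWINT, a kinetochore protein that recruits the checkpoint, was at 6.29, 5.50 and 5.42 FPKM in shFOXA1 and 2.89, 3.12 and 3.70 in shBUB3 with 38.5, 39.1 and 37.4 in pLKO (0.67 ± 0.09 (adjusted p = 1.8e-05)). MAD2L1, the checkpoint protein that binds CDC20, was at 3.92, 2.92 and 3.07 FPKM in shFOXA1 and 1.47, 2.55 and 2.22 in shBUB3 with 38.6, 39.2 and 37.0 in pLKO (0.49 ± 0.13 (adjusted p = 0.0036)). Both were far below pLKO in either knockdown and slightly higher in shFOXA1. Of 36 listed centromere and kinetochore genes with values 21 were tested. Of these 5 rose and 4 fell, with a median of 0.14, while with scaling 11 rose and 2 fell, with a median of 0.28. CENPN, which binds centromeric nucleosomes, was at 60.9, 60.2 and 58.5 FPKM in shFOXA1 and 18.0, 18.0 and 17.5 in shBUB3 with 46.3, 49.5 and 45.7 in pLKO (1.69 ± 0.04 (adjusted p = 4.3e-11)). Of 37 genes of securin, cohesin, condensin and the anaphase-promoting complex 16 fell and 9 rose (13 fell and 15 rose with scaling). The ubiquitin-conjugating enzyme UBE2S was at 22.7, 24.96 and 22.3 FPKM in shFOXA1 and 41.8, 41.5 and 65.8 in shBUB3 (-1.03 ± 0.14 (adjusted p = 2.7e-05)).

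Of 51 genes of DNA replication and deoxynucleotide supply 26 fell and 13 rose, near the 47.1% and 28.4% of all genes. Their median was -0.21. With scaling 16 fell and 19 rose, with a median of 0.01. Against pLKO 49 were lower in shFOXA1 and 45 in shBUB3, where 44% and 30.5% of all genes were. PCNA, the sliding clamp of replication, was at 19.8, 21.2 and 24.4 FPKM in shFOXA1 and 8.77, 10.9 and 11.9 in shBUB3 with 47.3, 52.5 and 49.5 in pLKO (0.99 ± 0.10 (adjusted p = 1.8e-06)). MCM4 and MCM7 of the replicative helicase were also higher, by 0.52 (adjusted p = 4.1e-06) and 0.42 (adjusted p = 6.8e-05). POLD2, a subunit of polymerase delta, was at 54.7, 56.5 and 53.3 FPKM in shFOXA1 and 130.5, 124 and 166 in shBUB3 with 98.3, 106 and 96.5 in pLKO (-1.33 ± 0.09 (adjusted p = 9.3e-08)), and CHAF1B, a histone chaperone, at 1.33, 1.69 and 1.69 FPKM in shFOXA1 and 5.40, 5.49 and 5.18 in shBUB3 (-1.31 ± 0.08 (adjusted p = 2.9e-08)). Promoter matches follow the known layout of these groups: the E2F motif TTCCCGC or TTGGCGC, searched on both strands of the 300-base window, was in 25 of 45 replication promoters (55.6%) against 15% of all.

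Replication-dependent histones, whose mRNAs normally end in a stem-loop without a poly(A) tail, were above pLKO in both knockdowns. Of 36, 23 were called higher than pLKO in shFOXA1 and 26 in shBUB3, where 26.5% and 35.1% of all genes were. In the direct comparison 19 fell and 4 rose, where 47.1% and 28.4% of all genes did. Their median was -0.43 (-0.22 with scaling, -0.41 without replicate 3). Over all 63 listed histone genes, tested or not, the summed level was 747, 767 and 726 FPKM in shFOXA1. It was 1252, 1191 and 1304 in shBUB3 and 456, 452 and 433 in pLKO. HIST1H2AG was at 1.497, 2.19 and 2.14 FPKM in shFOXA1 and 18.5, 18.9 and 13.1 in shBUB3 (-2.59 ± 0.14 (adjusted p = 1.1e-08)), HIST1H1C, a linker histone, at 60.4, 63.1 and 62.5 FPKM in shFOXA1 and 195, 182 and 294 in shBUB3 (-1.80 ± 0.14 (adjusted p = 2.3e-07)) and HIST1H2BC at 20.6, 21.2 and 14.9 FPKM in shFOXA1 and 73.9, 69.6 and 56.0 in shBUB3 (-1.77 ± 0.14 (adjusted p = 2.5e-07)). Histone genes are near-identical within a class, so the split among them is uncertain.

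CDKN1A, the p53-induced CDK inhibitor p21, was high in both knockdowns: 563, 579.5 and 569 FPKM in shFOXA1 and 712, 670.3 and 773 in shBUB3, against 94.2, 90.2 and 95.8 in pLKO. The direct difference was -0.33 ± 0.07 (adjusted p = 8.8e-04), and -0.09 (adjusted p = 0.25) with scaling, where it did not pass the test. Of 44 p53 targets 21 fell and 17 rose, where 47.1% and 28.4% of all genes did. With scaling 16 fell and 21 rose, where 35.9% and 38.9% of all genes did. PERP, a p53-induced desmosome protein, was at 8.12, 8.49 and 9.01 FPKM in shFOXA1 and 41.9, 39.5 and 42.9 in shBUB3 (-2.15 ± 0.05 (adjusted p = 1.4e-11)), GDF15, a stress-induced secreted factor, at 437, 479.8 and 466 FPKM in shFOXA1 and 1227, 1193 and 1624 in shBUB3 (-1.53 ± 0.11 (adjusted p = 1.5e-07)), and KITLG, the ligand of the receptor KIT, at 3.21, 3.82 and 3.79 FPKM in shFOXA1 and 0.198, 0.322 and 0.138 in shBUB3 (1.92 ± 0.08 (adjusted p = 1.9e-09)). Of 24 CDK inhibitors and G1 cyclins 12 fell and 9 rose, and 9 fell and 12 rose with scaling. Beside CDKN2B, CDKN1C (p57) was at 4.57, 5.05 and 4.46 FPKM in shFOXA1 and 0.419, 0.445 and 0.802 in shBUB3 (1.88 ± 0.10 (adjusted p = 7.6e-09)) and CCNE1, cyclin E1, at 11.1, 11.6 and 12.7 FPKM in shFOXA1 and 4.58, 3.87 and 4.63 in shBUB3 (1.26 ± 0.08 (adjusted p = 2.7e-08)). The inhibitors differed in pattern: CDKN1A was raised in both groups, and CDKN2B and CDKN1C were called higher than pLKO in shFOXA1 but not in shBUB3.

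Inflammatory genes were mostly higher in shFOXA1. Of 19 inflammatory and NF-kB genes 13 rose and 3 fell, against 28.4% and 47.1% of all genes, and their median of 0.88 was the highest of the lists with 10 or more tested members (1.06 with scaling, 0.93 without replicate 3). Over the 38 listed genes with values, tested or not, the summed level was 397, 397 and 399 FPKM in shFOXA1. It was 148, 149 and 167 in shBUB3 and 141, 141 and 137 in pLKO. PLA2G2A alone, with the levels given above, made up most of the difference between the shFOXA1 and shBUB3 sums. IL32, an inflammatory cytokine, was at 14.5, 16.01 and 16.02 FPKM in shFOXA1 and 1.09, 1.18 and 1.70 in shBUB3 (2.84 ± 0.10 (adjusted p = 3.1e-10)). LCN2, an iron-carrier protein of innate immunity, was at 2.12, 2.61 and 2.40 FPKM in shFOXA1 and 0.0597, 0 and 0 in shBUB3 (1.73 ± 0.07 (adjusted p = 1.6e-09)), and pLKO was listed at 0 in its 3 libraries. SOD2, the mitochondrial superoxide dismutase, was lower at 7.37, 7.04 and 7.44 FPKM in shFOXA1 and 24.2, 24.2 and 24.7 in shBUB3 (-1.62 ± 0.05 (adjusted p = 2.5e-10)), and RELA, an NF-kB subunit, was at 28.1, 27.9 and 27.3 FPKM in shFOXA1 and 36.4, 36.0 and 35.0 in shBUB3 (-0.35 ± 0.05 (adjusted p = 5.6e-05)). Of 30 interferon-induced genes 13 rose and 8 fell, with a median of 0.17 (0.32 with scaling). IRF7, a transcription factor of the interferon response, was at 11.2, 11.9 and 12.02 FPKM in shFOXA1 and 2.33, 2.49 and 2.57 in shBUB3 (1.88 ± 0.08 (adjusted p = 1.4e-09)) and IFITM3, an antiviral membrane protein, at 104, 109.5 and 101 FPKM in shFOXA1 and 27.2, 30.6 and 34.9 in shBUB3 (1.74 ± 0.09 (adjusted p = 1.0e-08)).

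Of 24 tested genes of the TGF-beta, ID and epithelial-mesenchymal list 13 rose and 4 fell, where 28.4% and 47.1% of all genes did. Their median was 0.29 (0.48 with scaling, 0.29 without replicate 3). THBS1 and FN1 led those that rose. ID2, which blocks basic helix-loop-helix factors, was at 48.8, 47.8 and 43.9 FPKM in shFOXA1 and 5.43, 5.84 and 5.45 in shBUB3 with 5.30, 4.88 and 4.84 in pLKO (2.86 ± 0.06 (adjusted p = 7.4e-12)). Of the 7 tested genes of IGF signalling 4 rose and 1 fell. Beside IGFBP3, IRS1, an adaptor of the insulin and IGF receptors, was at 1.57, 1.47 and 1.21 FPKM in shFOXA1 and 0.320, 0.377 and 0.233 in shBUB3 (0.88 ± 0.08 (adjusted p = 1.2e-06)) and IGF1R, the IGF receptor, at 11.3, 11.3 and 10.8 FPKM in shFOXA1 and 7.37, 7.41 and 4.62 in shBUB3 (0.73 ± 0.12 (adjusted p = 1.9e-04)), while IGF2R, the receptor that clears IGF2 and sorts lysosomal enzymes, was at 30.5, 31.2 and 31.6 FPKM in shFOXA1 and 159, 166 and 113 in shBUB3 with 97.0, 86.4 and 90.0 in pLKO (-2.17 ± 0.12 (adjusted p = 9.8e-09)). The scavenging receptor and the signalling receptor therefore differed in opposite directions.

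Of 21 AP-1 and immediate early genes 11 rose and 7 fell, with a median of 0.21 (0.43 with scaling). KLF4, a Krueppel-like factor of epithelial differentiation, was at 9.76, 10.6 and 9.26 FPKM in shFOXA1 and 0.819, 0.848 and 0.648 in shBUB3 (2.62 ± 0.07 (adjusted p = 7.6e-11)), BTG1, an antiproliferative cofactor, at 92.2, 94.5 and 92.3 FPKM in shFOXA1 and 15.8, 15.99 and 14.7 in shBUB3 (2.51 ± 0.04 (adjusted p = 2.8e-12)) and DUSP5, a phosphatase of ERK, at 6.29, 8.39 and 6.63 FPKM in shFOXA1 and 0.446, 0.694 and 0.769 in shBUB3 (2.30 ± 0.11 (adjusted p = 3.0e-09)). For KLF4 and BTG1, pLKO lay between the groups, at 3.42, 3.26 and 3.83 and 35.2, 36.7 and 35.3. Of 35 polycomb subunits 13 fell and 12 rose, and 10 fell and 15 rose with scaling. For both lists, the shares of all genes were 47.1% lower and 28.4% higher, and 35.9% and 38.9% with scaling. RBBP4, a histone-binding subunit shared by PRC2 and other complexes, was at 16.6, 17.3 and 18.9 FPKM in shFOXA1 and 4.83, 5.53 and 4.29 in shBUB3 with 16.9, 16.8 and 16.2 in pLKO (1.67 ± 0.07 (adjusted p = 2.0e-09)), and CBX6, a PRC1 subunit, was at 11.1, 12.1 and 11.2 FPKM in shFOXA1 and 49.1, 47.9 and 41.4 in shBUB3 with 37.3, 36.4 and 38.9 (-1.91 ± 0.07 (adjusted p = 3.1e-10)).

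Fatty acid genes differed in both directions, and most genes of the cholesterol pathway were lower in shFOXA1. FADS2, the delta-6 desaturase, was at 156, 166 and 153 FPKM in shFOXA1 and 19.4, 23.2 and 19.8 in shBUB3 with 225, 214 and 222 in pLKO (2.87 ± 0.07 (adjusted p = 3.8e-11)). Against pLKO it differed by -3.34 in shBUB3 and -0.47 in shFOXA1. SCD, the delta-9 desaturase, was at 33.4, 34.2 and 32.9 FPKM in shFOXA1 and 89.9, 101 and 73.4 in shBUB3 with 241, 216 and 231 in pLKO (-1.36 ± 0.10 (adjusted p = 1.3e-07)) and ELOVL6, a fatty acid elongase, at 1.66, 2.29 and 2.37 FPKM in shFOXA1 and 5.93, 6.60 and 4.82 in shBUB3 (-1.12 ± 0.11 (adjusted p = 1.2e-06)). The list of 24 fatty acid genes had 12 lower and 9 higher, where 47.1% and 28.4% of all genes were, and 10 of each with scaling. Of 27 genes of cholesterol synthesis and uptake 20 fell and 3 rose, with a median of -0.49 (-0.25 with scaling, with 15 lower and 5 higher, and -0.38 without replicate 3). PMVK, phosphomevalonate kinase, was at 6.06, 6.29 and 6.12 FPKM in shFOXA1 and 35.5, 35.3 and 60.5 in shBUB3 (-2.60 ± 0.16 (adjusted p = 2.6e-08)), and SREBF2, the pathway's transcription factor, rose at 44.7, 47.1 and 47.2 FPKM in shFOXA1 and 21.3, 22.8 and 20.1 in shBUB3 (1.08 ± 0.05 (adjusted p = 3.5e-09)).

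Stress genes were split. Of 43 heat shock proteins and cytosolic chaperones 26 fell and 12 rose, with a median of -0.42 (-0.18 with scaling, -0.29 without replicate 3). With both changes 19 fell and 17 rose, with a median of -0.05. The shares of all genes were 47.1% lower and 28.4% higher, 35.9% and 38.9% with scaling, and 38.7% and 41.5% with both changes. Beside CRYAB, the small heat shock protein HSPB8 was at 18.7, 20.8 and 20.3 FPKM in shFOXA1 and 4.78, 5.04 and 5.06 in shBUB3 (1.81 ± 0.08 (adjusted p = 1.4e-09)) and its cochaperone BAG3 at 39.6, 43.3 and 39.3 FPKM in shFOXA1 and 12.6, 13.2 and 14.0 in shBUB3 (1.55 ± 0.06 (adjusted p = 9.1e-10)). CCT7, a subunit of the cytosolic chaperonin, was lower at 45.8, 50.7 and 48.9 FPKM in shFOXA1 and 112, 107 and 148 in shBUB3 (-1.30 ± 0.10 (adjusted p = 2.1e-07)), and DNAJB4 was at 7.96, 7.31 and 8.69 FPKM in shFOXA1 and 23.5, 24.9 and 25.1 in shBUB3 with 4.36, 4.45 and 4.13 in pLKO (-1.51 ± 0.06 (adjusted p = 1.1e-09)). Of 41 ATF4 targets, serine synthesis genes and tRNA synthetases 20 rose and 15 fell (25 and 14 with scaling). CHAC1, which degrades glutathione, was at 18.7, 19.5 and 20.9 FPKM in shFOXA1 and 2.55, 2.91 and 2.69 in shBUB3 (2.48 ± 0.07 (adjusted p = 5.1e-11)), and the 2 proline synthesis enzymes differed in opposite directions, with ALDH18A1 at 23.1, 24.3 and 22.8 FPKM in shFOXA1 and 4.69, 5.21 and 5.23 in shBUB3 (2.02 ± 0.05 (adjusted p = 3.5e-11)) and PYCR1 at 19.4, 21.2 and 16.8 FPKM in shFOXA1 and 73.9, 73.6 and 91.1 in shBUB3 (-2.00 ± 0.09 (adjusted p = 2.6e-09)).

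Of 37 genes of endoplasmic reticulum folding and the unfolded protein response 18 fell and 7 rose, where 47.1% and 28.4% of all genes did. With scaling 14 fell and 15 rose. PDIA6, a disulfide isomerase, was at 21.5, 21.9 and 22.6 FPKM in shFOXA1 and 72.0, 72.7 and 75.9 in shBUB3 (-1.70 ± 0.04 (adjusted p = 3.8e-11)). Of 40 glycolysis and hypoxia genes 16 rose and 16 fell (21 and 11 with scaling). VEGFA, the endothelial growth factor, was at 77.0, 83.0 and 81.9 FPKM in shFOXA1 and 25.7, 26.6 and 23.9 in shBUB3 with 33.0, 32.8 and 33.0 in pLKO (1.63 ± 0.05 (adjusted p = 1.4e-10)) and HIF1A, the oxygen-regulated transcription factor, at 37.8, 36.8 and 37.2 FPKM in shFOXA1 and 14.4, 15.04 and 8.35 in shBUB3 (1.53 ± 0.16 (adjusted p = 2.4e-06)). LDHB, which turns lactate to pyruvate, was lower at 35.5, 35.6 and 36.4 FPKM in shFOXA1 and 120.0, 124.9 and 170.4 in shBUB3 with 163, 172 and 159.7 in pLKO (-1.90 ± 0.11 (adjusted p = 1.8e-08)).

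The second FOXA1 knockdown gave libraries that the direct comparison did not use. FOXA1 itself was at 83.1, 84.0 and 80.4 RPKM (reads scaled by gene length and library total) against 131, 134 and 129.6 in its pGIPZ control, a log2 difference of -0.67 (adjusted p = 5.9e-10). Of the 736 genes at least 2-fold higher in shFOXA1 than in shBUB3, 677 were tested there: 52.6% were called higher and 15.5% lower, where 26% and 25% of all 12097 genes were. Of the 1225 at least 2-fold lower, 1195 were tested, with 45.9% called lower and 11.1% higher. Of the 12 highest genes 10 were called in the same direction, 1 in the opposite (ACHE, -0.49) and 1 was not called (CDH1, -0.05). Of the 10 tested among the 11 lowest named 9 were called in the same direction, 0 in the opposite, and UGT2B28 (-0.16) was not called.

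Several of the ranked genes were clearly separated in the second knockdown. UGT2B17 was at 5.86, 5.21 and 5.61 RPKM against 11.9, 11.7 and 10.7 (-0.92 (adjusted p = 2.3e-08)), DDC at 3.62, 3.54 and 3.71 against 14.8, 15.4 and 15.8 (-1.82 (adjusted p = 1.4e-11)) and SLC45A3 at 42.3, 42.8 and 45.5 against 154, 148 and 156 (-1.79 (adjusted p = 1.8e-12)). THBS1 was at 38.6, 38.7 and 38.3 against 4.28, 4.06 and 4.16 (2.94 (adjusted p = 7.3e-14)), NPPC at 36.5, 39.1 and 37.3 against 4.85, 2.91 and 2.86 (3.12 (adjusted p = 1.3e-08)) and FN1 at 355, 361 and 361 against 67.1, 69.2 and 66.1 (2.39 (adjusted p = 7.3e-14)). In each of these 6 genes the knockdown and control libraries did not overlap. Of the 79 ribosomal protein genes 56 were called lower and 0 higher, where 25% and 26% of all genes were, with a median of -0.17. For mitochondrial ribosomal proteins 18 of 76 were lower and 6 higher (median -0.06), and for the proteasome 8 were lower and 8 higher of 39. Translation factors had 13 lower and 10 higher of 46 (median -0.00), and ribosome biogenesis genes 12 lower and 3 higher of 53 (median -0.03). Respiratory chain genes had 35 lower and 2 higher of 77 (median -0.12). Of 18 inflammatory and NF-kB genes 10 were higher and 5 lower (median 0.16), next to 14 and 1 of 19 in shFOXA1 against pLKO. For other lists the counts against vector differed from the direct counts, so those of shFOXA1 against pLKO are given beside them. Of 30 interferon-induced genes 0 were higher and 25 lower, next to 11 and 5 in shFOXA1. Of 42 heat shock and chaperone genes 23 were higher and 4 lower, next to 16 and 21 of 43. Of 27 forkhead factors and cofactors 16 were higher and 6 lower, next to 8 and 13. Of 32 histone genes 13 were higher and 1 lower, next to 23 and 6 of 36. The histone genes that were called were thus mostly higher than vector in both FOXA1 knockdowns, and in the second most were not called.

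Markers of other cell types were checked in all 6 libraries. Sums are over all markers of a type, whether or not they passed the minimum of 1 FPKM. The 10 luminal markers were all at 1 FPKM or more in at least 3 libraries, with a summed level of 1736 to 1828 in shFOXA1, 1678 to 1957 in shBUB3 and 2407 to 2458 in pLKO. Of 15 basal markers 4 passed, with sums of 10.2 to 11.7 in shFOXA1, 5.57 to 6.08 in shBUB3 and 10.99 to 11.99 in pLKO, and KRT5 was listed at 0. KRT14 was at 2.38, 2.94 and 3.16 FPKM in shFOXA1 and 0.120, 0.246 and 0.189 in shBUB3 (1.69 ± 0.08 (adjusted p = 6.1e-09)) and KRT15 at 1.42, 1.31 and 1.54 FPKM in shFOXA1 and 0.0533, 0.0596 and 0.0240 in shBUB3 (1.21 ± 0.08 (adjusted p = 8.6e-08)). Of the 6 libraries, KRT14 and KRT15 reached 1 FPKM only in those of shFOXA1, so they passed only through the group where they are high. The other basal markers that passed were ITGA6 (-0.07, not called) and LAMB3 (0.29, called). Of 15 stromal markers 3 passed (sums of 12.2 to 13.8, 20.2 to 24.4 and 10.3 to 10.6 in the same order), with PDGFRA, DES and POSTN listed at 0. ACTA2, smooth muscle actin, was at 2.42, 1.77 and 2.35 FPKM in shFOXA1 and 11.2, 10.8 and 13.6 in shBUB3 with 2.65, 2.82 and 2.97 in pLKO (-2.02 ± 0.10 (adjusted p = 4.0e-09)). The other two, TAGLN, a smooth muscle actin-binding protein, and COL1A1, a collagen chain, were at 5.56, 6.26 and 6.31 FPKM in shFOXA1 and 3.69, 4.46 and 5.05 in shBUB3 (0.39 ± 0.09 (adjusted p = 0.0019)) and 3.90, 4.14 and 4.81 FPKM in shFOXA1 and 4.85, 5.02 and 5.34 in shBUB3 (-0.20 ± 0.07 (adjusted p = 0.023)). Of 15 immune markers only CD68 passed (0.76 ± 0.10 (adjusted p = 2.1e-05)), with CD3D listed at 0, and of 11 endothelial markers only VWF passed (-1.83 ± 0.07 (adjusted p = 5.2e-10)), with ERG listed at 0.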

How the data were processed

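RNA was taken from LNCaP cells 5 days after infection, and libraries were made with a NEBNext Ultra kit and sequenced on an Illumina instrument, per the labels' protocols. The submitters' processing notes name STAR and the build hg38. Its version, the counter and the annotation were not given in the sources used here. Values deposited by the authors are FPKM for the pLKO experiment and RPKM for the pGIPZ experiment. The FPKM table held 26475 rows, of which 32 had no values. Neither table gives read totals, so no counting interval could be formed, and relative depth was read from the steps of low values.

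Values were taken as log2(value + 1). One limma 3.58.1 fit (R 4.3.3, intensity trend, two-sided) held the 12 libraries of the pLKO experiment. Its 4 groups were pLKO, shUSP7, shBUB3 and shFOXA1, with a term per group. Genes were those at 1 FPKM or more in at least 3 of the 6 compared libraries, and adjusted p under 0.05 was called. A gene could thus pass through the 3 libraries of 1 group alone. An exact permutation test of 3 against 3 cannot give a p under 0.1. The pGIPZ experiment had its own fit, over 12 libraries in 4 groups. These were the pGIPZ control, the FOXA1 knockdown, and the knockdown with wild-type or with K295A FOXA1 re-expressed. The fitting code was tested on simulated data. Tables and figures used Python 3.11.15, NumPy 2.4.6, pandas 2.3.3 and matplotlib 3.10.9.

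The comparison, the 38 gene lists and the alternatives were chosen with earlier results of these data known. Genes named were FOXA1, BUB3, USP7, EZH2, KLK3 and CDKN1A, then the 12 highest and 12 lowest differences among genes called in the same direction also with scaling and without shBUB3 replicate 3, with 1 group's mean at or above 1, no overlap and a gene symbol. Up to 3 members per list and direction under the same conditions, any called member of lists with 5 or fewer, and the ribosomal protein genes whose start sites are shown followed. Another 3 genes that this rule names are not reported here. Alternatives were median-ratio scaling, a pseudocount of 0.1, no filter, a minimum of 5, the 6 libraries alone, a replicate block, each library left out, and scaling without shBUB3 replicate 3. Except for the 2 filter alternatives, each kept the genes of the reported fit. GENCODE 29 (GRCh38) gave gene positions and transcript lengths; the authors' annotation may differ.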

Additional observations from a re-analysis of the deposited data

Results flagged for a closer look

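Genes of the named set were set apart where FOXA1 knockdown against its own vector moved every library one way in the pLKO experiment and the other way in the pGIPZ experiment, with both differences past the test. The difference between experiments was not tested, and the tables have different units. CDKN1A was 2.60 in the pLKO experiment (563, 579.5 and 569 against 94.2, 90.2 and 95.8 FPKM) and -0.26 in the pGIPZ experiment (161, 156 and 153 against 186, 190.1 and 188 RPKM). USP7 was -0.35 and 0.22, and ACHE 2.91 and -0.49, with ACHE at 4.04, 3.75 and 3.31 against 6.26, 4.93 and 5.68 RPKM.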

How the results depend on the processing

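The count of 8927 called genes lay between 6397 (minimum of 5 FPKM) and 11150 (no filter) over all alternatives, and leaving out 1 library gave 8466 to 9533. With the spread taken from the 6 compared libraries alone, 8136 genes were called. Genes called higher numbered 2163 with the minimum of 5, against 3353. With scaling, which centres the differences by construction, 52% of calls were higher against 37.6% on the deposited values, and 4 genes were called in opposite directions. Genes at least 2-fold lower numbered 715 with scaling and 674 with scaling and without shBUB3 replicate 3, against 1225. A pseudocount of 0.1 gave 1100 genes at least 2-fold higher, against 736. Of 201 named genes 199 kept direction and call with scaling and 200 without shBUB3 replicate 3. The naming rule required both of most of these genes, so these counts were largely fixed in advance. COL1A1 (-0.20) turned to 0.03 with scaling and without shBUB3 replicate 3. The shared replicate numbers did not pair the libraries: the correlations of deviations were 0.154, -0.051 and 0.099 for the same numbers, and the replicate block gave 8886 called genes, with the calls of all 201 named genes kept. Depth cannot be turned into counting error without read totals.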
